A study of Mus musculus with 14 samples.

Results

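A group of 10 genes of neutrophil granules and of calprotectin was followed across sorted B lineage progenitors of mouse bone marrow, where they are not lineage genes. These were 4 granule genes of early granulocyte precursors (Mpo, Prtn3, Elane and Ctsg) and 6 genes of later neutrophil stages (S100a8, S100a9, Ngp, Ltf, Camp and Chil3). The members were chosen by symbol, and 11 probe sets carried them: 9 genes had 1 probe set each and Chil3 had 2. All 10 were among the 18193 genes tested. RNA from 14 samples in 6 groups was hybridised to Affymetrix 3' arrays; the samples came from C57Bl6 mice, all adult and 8 to 12 weeks old. Ly6D- CLP, Ly6D+ CLP (CLP, common lymphoid progenitor), ProB and PreB cells were sorted from untransplanted wild type marrow, with 2 arrays per group. Pax5KO engrafted and WT engrafted cells, with 3 arrays each, descended from fetal liver of day 15 embryos that were either Pax5 knockout or wild type. Both donor types carried a λ5 reporter, and both were put into sublethally irradiated wild type hosts, a dose that leaves part of the host's own marrow. The sort, 4 weeks after transplantation, took marrow cells with B220 and reporter signal. The titles call the arrays biological replicates and do not say how many mice gave each sample, nor which gates were used for the untransplanted cells.

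Neutrophils fill their granules in sequence. Myeloperoxidase and the serine proteases neutrophil elastase, proteinase 3 and cathepsin G are made at the promyelocyte stage and are packed into primary granules, and Mpo transcripts are also found in multipotent progenitors before lineage choice. Lactoferrin, cathelicidin and the neutrophilic granule protein follow at the myelocyte stage in secondary granules. S100a8 and S100a9 encode the subunits of calprotectin, a calcium and zinc binding complex that is among the most abundant proteins of the mature neutrophil's cytosol, and Chil3 encodes the chitinase-like protein Ym1. The transcription factors PU.1 and C/EBP are known regulators of both programmes. Pax5 is the B lineage commitment factor, and it holds down genes of other lineages.

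Both gene sets are shown with their promoters, since the members correlated with each other to different degrees. In the RefSeq promoter windows of build GRCm38.p6, all 10 genes had 1 window, and the 250 bases before the gene start were searched on both strands for 4 short motifs. The PU.1 motif GAGGAAG was present in all 4 precursor genes and in 1 of 6 late genes (S100a8, on the minus strand), against 10.6% of 32851 promoter windows of that length. The C/EBP motif TTGCNNAA was present in 3 late genes (S100a9, Ngp and Ltf) and in no precursor gene, against 9.56% of windows. TGTGGT, the RUNX motif, occurred in Ctsg and S100a9, against 14% of windows, and the MYB motif AACNGTT in none of the 10, against 3.80%. No match overlapped another, and a match describes letters only. The precursor windows lie at chr11:87793534-87793783 (plus strand, Mpo), chr10:79879417-79879666 (plus strand, Prtn3), chr10:79886062-79886311 (plus strand, Elane) and chr14:56102575-56102824 (minus strand, Ctsg). Prtn3 and Elane are neighbours on chromosome 10. They are printed 5′ to 3′ with GAGGAAG in capitals, which spans bases -95 to -89 from the start in Prtn3 and -85 to -79 in Elane:
Mpo: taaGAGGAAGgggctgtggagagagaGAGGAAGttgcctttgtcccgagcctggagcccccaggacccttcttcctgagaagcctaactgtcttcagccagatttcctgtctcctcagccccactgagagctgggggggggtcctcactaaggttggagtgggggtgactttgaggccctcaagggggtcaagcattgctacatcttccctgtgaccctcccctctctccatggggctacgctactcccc
Prtn3: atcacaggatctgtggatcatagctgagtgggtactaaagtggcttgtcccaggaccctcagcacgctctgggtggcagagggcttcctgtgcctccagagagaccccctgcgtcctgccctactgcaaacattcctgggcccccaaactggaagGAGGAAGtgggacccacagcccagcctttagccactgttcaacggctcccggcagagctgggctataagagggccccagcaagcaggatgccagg
Elane: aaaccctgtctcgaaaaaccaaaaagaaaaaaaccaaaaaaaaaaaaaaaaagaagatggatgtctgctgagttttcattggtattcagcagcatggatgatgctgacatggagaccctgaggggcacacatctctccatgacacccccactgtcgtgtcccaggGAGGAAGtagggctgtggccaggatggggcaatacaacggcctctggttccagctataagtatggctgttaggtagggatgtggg
Ctsg: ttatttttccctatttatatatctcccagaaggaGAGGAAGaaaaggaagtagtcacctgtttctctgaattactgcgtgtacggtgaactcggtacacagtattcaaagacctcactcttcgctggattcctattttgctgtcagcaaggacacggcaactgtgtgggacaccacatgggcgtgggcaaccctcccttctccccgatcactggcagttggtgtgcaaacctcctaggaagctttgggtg
Of the late genes, Ngp (chr9:110419658-110419807, plus strand) and Ltf (chr9:111019142-111019291, plus strand) had the C/EBP motif within 150 bases of the start, in Ngp on each strand and in Ltf on the minus strand. Those 150 bases follow with the match in capitals as it reads on the printed strand:
Ngp: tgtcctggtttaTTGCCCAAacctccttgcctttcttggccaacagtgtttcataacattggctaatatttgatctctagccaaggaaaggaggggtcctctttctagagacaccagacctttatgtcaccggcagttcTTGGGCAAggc
Ltf: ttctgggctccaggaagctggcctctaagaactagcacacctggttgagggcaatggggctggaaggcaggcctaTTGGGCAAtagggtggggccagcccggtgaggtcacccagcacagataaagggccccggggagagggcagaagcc

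Values are log2 signals, on which 1 unit is a 2-fold step. They shared a floor at 2.32, the lowest value deposited, and an array counted as at the floor for a gene when it lay within 0.5 of it. Where 1 of the groups compared was at the floor, the difference understates the change in transcript. It is then a lower bound in size, also where not marked as such, and values at the floor have no order. The bound concerns the floor alone: each estimate keeps its sampling error and is not a guaranteed minimum. Levels are compared between arrays within a gene and never between genes. Overlap between the arrays of groups is a description only, since its share over all genes was not counted. In sorted bulk samples, fewer cells of a type and less RNA per cell cannot be told apart.

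Several arrays stood apart before any gene was compared. The arrays of the Ly6D- CLP group differed from each other by an SD of 1.10 over genes and those of the Ly6D+ CLP group by 1.04, against 0.47 to 0.80 for array pairs of the other groups. The late genes were at the floor on Ly6D- CLP array 1 and high on array 2, so the results of that group are given with and without array 2. The actin probe sets differed by 7.27 and 6.71 between the 3' and the 5' end of the transcript on the PreB arrays, against 2.51 to 5.57 on the other 12 arrays. Between the Gapdh probe sets of both ends the PreB arrays (4.88 and 4.35) lay within the range of the others, 2.40 to 5.79. Xist, the X-inactivation transcript, was at 10.71 and 11.49 on the ProB arrays, at 12.66 to 13.16 on the Pax5KO engrafted arrays and at 12.68 on WT engrafted array 3, and between 2.33 and 2.73 on all others. Xist thus moved with the comparisons of ProB with Ly6D+ CLP and with PreB cells, and in part with those that use the WT engrafted arrays, and its part in them was not tested. The brightest Pax5 probe set read 7.57 to 7.95 on the Pax5KO engrafted and 6.18 to 6.76 on the WT engrafted arrays. The labels do not give the deleted part of Pax5, so it does not check the genotype. B lineage markers were above the floor throughout (10 of 10 measured on every array except the Ly6D- CLP arrays, with 9 of 10). The 5 measured T cell markers were at the floor on every array except WT engrafted array 3, where 1 was above it.

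Mpo, Prtn3 and Ctsg were high on both Ly6D- CLP arrays and at or near the floor in ProB cells, and beyond that each precursor gene had its own profile. Mpo, whose product makes hypochlorous acid in the phagosome, read 12.38 and 12.12 on the Ly6D- CLP arrays, 10.69 and 11.04 on the Ly6D+ CLP arrays, 3.27 and 3.18 in ProB and 7.84 and 6.56 in PreB cells. On the engrafted arrays it read 7.99, 7.51 and 7.99 (Pax5KO) and 4.31, 7.91 and 9.39 (WT). Mpo was thus highest in Ly6D- CLP, next in Ly6D+ CLP and lowest in ProB cells, without overlap between those groups and any other. The PreB, Pax5KO engrafted and WT engrafted arrays overlapped, and the WT arrays spread over 5 log2 units.

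Ctsg, the gene of cathepsin G, read 8.05 and 7.91 on the Ly6D- CLP arrays, 4.64 and 5.97 on the Ly6D+ CLP arrays, 2.65 and 2.42 in ProB and 5.54 and 2.70 in PreB cells. It read 8.49, 8.50 and 8.78 on the Pax5KO engrafted and 5.21, 5.49 and 7.39 on the WT engrafted arrays. The Pax5KO engrafted group was the highest of the 6 for Ctsg and overlapped no other group. Both ProB arrays and PreB array 3 were at the floor.

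Prtn3, the gene of proteinase 3, read 6.26 and 6.63 in Ly6D- CLP and was at the floor on the Ly6D+ CLP (2.39 and 2.63) and ProB arrays (2.50 and 2.32). It read 2.96 and 4.98 in PreB cells, 3.33, 2.98 and 3.92 on the Pax5KO engrafted arrays and 2.42, 3.21 and 6.30 on the WT engrafted arrays. Only WT engrafted array 3 reached the range of the Ly6D- CLP arrays. Elane, the gene of neutrophil elastase and the neighbour of Prtn3, was at the floor on 13 of the 14 arrays, between 2.38 and 2.59. Its single value above the floor was 4.11, on WT engrafted array 3, the array that was also highest of its group for Mpo, Prtn3 and Ctsg.

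**Figure D1:**
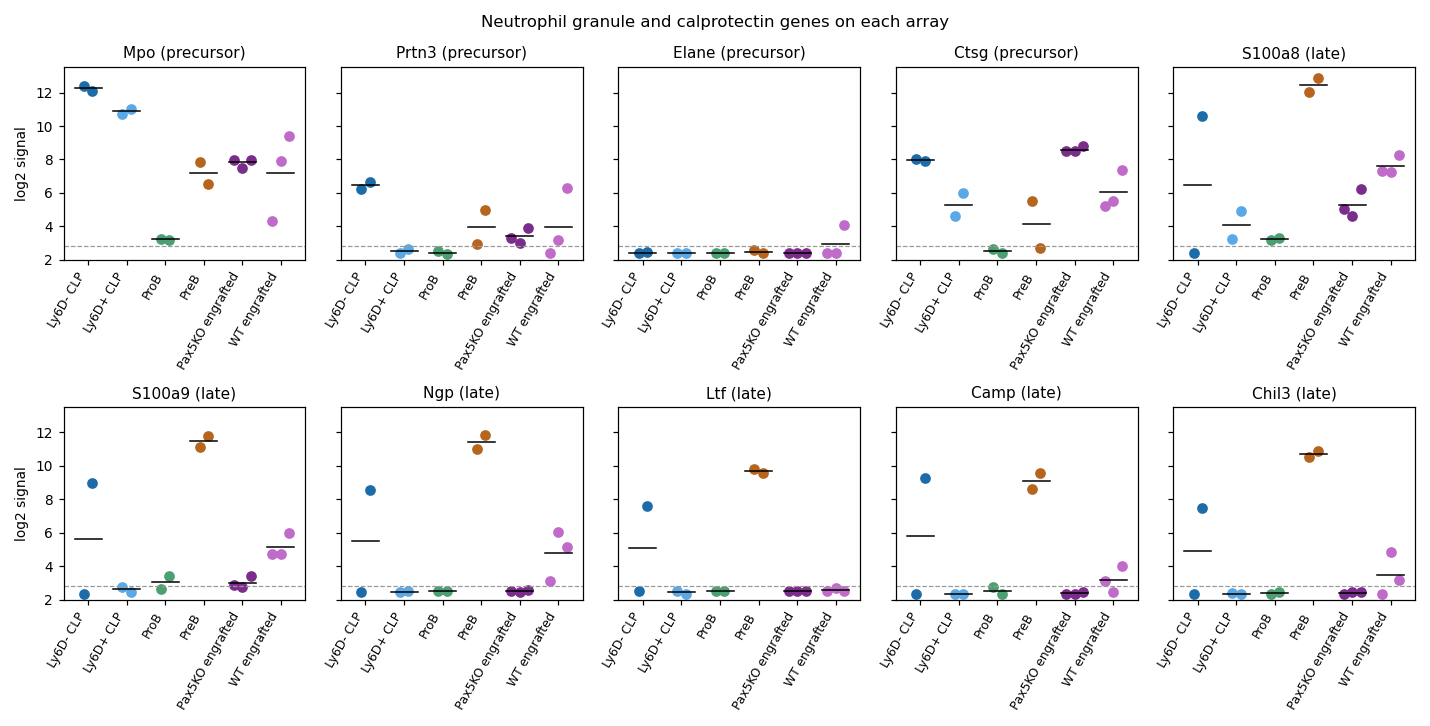
The log2 signal of each of the 10 genes on each of the 14 arrays, 1 panel per gene, with groups on the horizontal axis, group means as black bars and the floor limit of 2.82 as a dashed line. The 6 late genes share a profile with both PreB arrays and 1 of 2 Ly6D- CLP arrays high, while Mpo, Prtn3 and Ctsg are high on both Ly6D- CLP arrays.

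The late genes shared 1 profile, with both PreB arrays high and ProB arrays at or near the floor. S100a8 read 12.02 and 12.85 in PreB against 3.18 and 3.29 in ProB cells, 2.39 and 10.59 on the Ly6D- CLP arrays, and 3.27 and 4.94 on the Ly6D+ CLP arrays. On the engrafted arrays it read 5.05, 4.59 and 6.25 (Pax5KO) and 7.32, 7.27 and 8.25 (WT). S100a9 read 11.12 and 11.80 in PreB against 2.66 and 3.40 in ProB cells, 2.32 and 8.95 on the Ly6D- CLP arrays and 2.78 and 2.48 on the Ly6D+ CLP arrays, with 2.89, 2.77 and 3.40 on the Pax5KO and 4.74, 4.72 and 6.0 on the WT engrafted arrays. Both calprotectin genes were therefore higher on every WT engrafted than on every Pax5KO engrafted array.

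Ngp, a cathelicidin-related granule protein gene, read 11.03 and 11.85 in PreB cells and 8.58 on Ly6D- CLP array 2, and 3.12, 6.07 and 5.16 on the WT engrafted arrays. It was at the floor on the other 8 arrays, between 2.45 and 2.59, which included all Pax5KO engrafted arrays. Ltf, the gene of the iron binding protein lactoferrin, read 9.79 and 9.59 in PreB cells and 7.61 on Ly6D- CLP array 2. Its other 11 arrays were at the floor, between 2.32 and 2.68, and it was the only late gene at the floor on every WT engrafted array.

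Camp, the gene of the antimicrobial cathelicidin, read 8.61 and 9.56 in PreB cells, 9.28 on Ly6D- CLP array 2 and 3.10, 2.49 and 4.01 on the WT engrafted arrays, and was at the floor, between 2.36 and 2.73, on the other 8. It was the late gene for which Ly6D- CLP array 2 lay within the range of the PreB arrays. Chil3 read 10.55 and 10.92 in PreB cells, 7.48 on Ly6D- CLP array 2 and 2.33, 4.85 and 3.19 on the WT engrafted arrays, and was at the floor elsewhere, between 2.32 and 2.47. A second Chil3 probe set also matches its neighbour Chil4 and stayed out of the tests. It read 6.13 and 6.52 in PreB cells, 4.55 on Ly6D- CLP array 2 and 3.08 on WT engrafted array 2, and between 2.32 and 2.46 on the other 10 arrays.

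Set side by side as rises over the ProB mean, the precursor and late genes set only the PreB group apart. Late minus precursor rise was 5.71 and 6.86 on the PreB arrays and at most 1.40 on any other array. The Pax5KO engrafted range (-2.67 to -2.56) lay within that of the Ly6D+ CLP group (-2.76 to -2.47). On the PreB arrays the mean of the 6 late genes was 7.80 and 8.38 above ProB and the mean of the 4 precursor genes 2.09 and 1.52. On the Pax5KO engrafted arrays the order was the opposite, with precursor rises of 2.91, 2.70 and 3.13 and late rises of 0.24, 0.15 and 0.57. The means of the Ly6D+ CLP arrays resembled the latter, with precursor rises of 2.39 and 2.87 and late values of -0.08 and 0.11. The genes behind the precursor means differed. Mpo lay 7.47 and 7.82 above ProB in Ly6D+ CLP and 4.28 to 4.77 in Pax5KO engrafted cells. Ctsg lay 2.10 and 3.44 above it in Ly6D+ CLP and 5.95 to 6.24 in Pax5KO engrafted cells.

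On WT engrafted arrays 1 and 2 both sets lay above ProB by similar amounts (0.94 and 2.11 for the precursor, 1.14 and 1.96 for the late genes), and on array 3 the precursor genes led with 4.16 against 2.14. The Ly6D- CLP arrays had the same precursor rise, 4.63 and 4.64, and late values of -0.32 and 6.03. In all, the late rise exceeded the precursor rise on 4 of the 12 arrays outside ProB: both PreB arrays, Ly6D- CLP array 2 and WT engrafted array 1. Without Elane the count was 2, the PreB arrays alone. These means are a description with no test, since genes at the floor enter them at the floor.

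**Figure D2:**
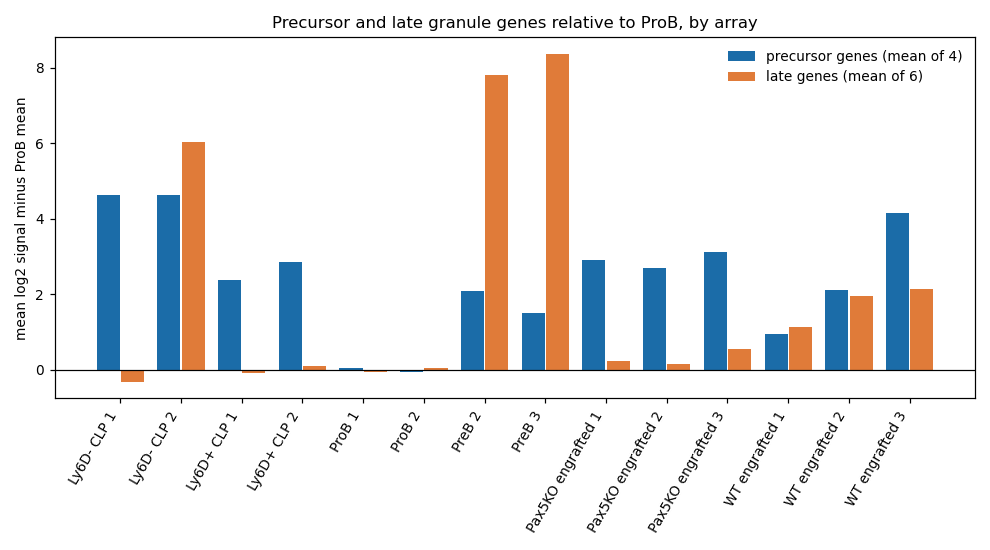
Mean log2 signal minus the ProB mean on each array (vertical axis, log2 units) for the 4 precursor genes (blue) and the 6 late genes (orange), with 1 pair of bars per array. Late bars reach 7.80 and 8.38 on the PreB arrays and stay at or under 0.57 on the Pax5KO engrafted arrays, where precursor bars lie between 2.70 and 3.13.

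Over the 14 arrays, the 15 pairs of late genes correlated with a Pearson r of 0.86 to 0.99 (median 0.95). The 6 pairs of precursor genes had an r of 0.14 to 0.62 (median 0.45), and the 24 pairs across the sets had -0.23 to 0.45 (median 0.08). Arrays of a group share their cells, and many points lay at the floor, so these values are descriptive. Among 12268 genes not at the floor on every array, S100a9 (0.95) and Ngp (0.93) had the profiles most like S100a8. The 5 most like it outside the 10 genes were Afap1 (0.91), Neurl3 (0.90), Srp54b, Chaserr and Zfp622 (0.89 each). The profiles most like Mpo were those of Gtf3c1, Pisd-ps3 and Plod3 (0.92 each), Selplg and Eef2k (0.91 each). For Ctsg the r with Mpo was 0.62, and 907 other genes had a higher one.

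From Ly6D- to Ly6D+ CLP, as progenitors take on the surface marker of B-directed cells, no member was called by limma at an adjusted p under 0.05. The background was low, with 0.813% of genes called higher and 0.638% lower. Prtn3 differed by -3.93 (SE 1.14, limma adjusted p = 0.188), a lower bound, Ctsg by -2.67 (SE 0.96, limma adjusted p = 0.340) and Mpo by -1.38 (SE 1.32, limma adjusted p = 0.842). Without array 2 they differed by -3.74, -2.74 and -1.51, and none was called. Unadjusted limma p-values were under 0.05 for 2 of the 10 genes, Prtn3 and Ctsg, against 1005 of 18193 genes higher and 804 lower. For the late genes the result turned on which Ly6D- CLP array was kept. With both, they differed by -2.39 to -3.46, lower bounds in size except for S100a8, and none was called. Without array 2, where 5.12% of genes were called in either direction, none of the 6 was called and 5 of the 6 differed by no more than 0.31 in size, the other being S100a8 at 1.71 (limma adjusted p = 0.559). Without array 1, where 3.36% of genes were called lower, all 6 differed by -5.12 to -6.92 (limma adjusted p from 4.06e-08 to 0.0103). That setting sets array 2 alone, the array high for these genes, against the Ly6D+ CLP group. With 1 array left, either setting takes the spread of the Ly6D- CLP group from the other groups and has no replicate check of it. Of the neutrophil markers that are not members, Csf3r, the receptor for granulocyte colony-stimulating factor, read 5.50 and 6.33 on Ly6D- CLP arrays 1 and 2, and Lcn2, a secondary granule lipocalin, 2.32 and 6.93. Mmp8, Fpr2 and Stfa2l1 were at the floor on both Ly6D- CLP arrays, while Mmp9, Clec4d and Clec4e were above it on array 2. Of the lists given below, 5 of 13 secondary and tertiary granule genes were above the floor on array 1 and 6 on array 2. For mature neutrophil genes it was 8 of 17 on each. The part of other cells in array 2 was not tested.

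From Ly6D+ CLP to ProB cells, Mpo fell by 7.64 (SE 1.32, limma adjusted p = 0.00988) and was the 1 member called, against 5.36% of genes called lower and 1.93% higher. The call ended in a fit of only these groups (limma adjusted p = 0.0659) and with array weights (limma adjusted p = 0.218). Ctsg differed by -2.77 (SE 0.96, limma adjusted p = 0.147), a lower bound. It was called when dim genes were left out (limma adjusted p = 0.0357). The 6 members Prtn3, Elane, Ngp, Ltf, Camp and Chil3 were at the floor in both groups, and the calprotectin genes differed by -0.87 (S100a8) and 0.40 (S100a9) with SEs of 2.10 and 1.67.

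From ProB to PreB cells, all 6 late genes rose and no precursor gene was called, against 6.35% of all genes called higher and 5.19% lower. S100a8 rose by 9.20 (SE 2.10, limma adjusted p = 0.0240) and S100a9 by 8.43 (SE 1.67, limma adjusted p = 0.0133). Ngp rose by at least 8.91 (SE 1.67), Chil3 by at least 8.34 (SE 1.40), Ltf by at least 7.15 (SE 1.23) and Camp by at least 6.53 (SE 1.73), with limma adjusted p of 0.0105, 0.00641, 0.00710 and 0.0447. The call of Camp ended in a fit of only these groups (limma adjusted p = 0.0614) and with single probe sets (limma adjusted p = 0.0546). The median over the 6 late genes was 8.38 and over the 4 precursor genes 1.58, against 0 over all genes. Among the precursor genes Mpo differed by 3.97 (SE 1.32, limma adjusted p = 0.0992), and was called higher when dim genes (limma adjusted p = 0.01895) or genes at the floor (limma adjusted p = 0.0355) were left out. Ctsg differed by 1.59 (SE 0.96, 95% interval -0.59 to 3.78, limma adjusted p = 0.362). Prtn3 differed by 1.56 (SE 1.14, 95% interval -1.04 to 4.16, limma adjusted p = 0.487), and Elane was at the floor in both groups.

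The Ly6D- CLP arrays enter the shared spread although they are in neither group: the SD of S100a8 was 5.80 there and between 0.08 and 1.18 in the other 5 groups. Without Ly6D- CLP array 2 the SE of S100a8 was 0.71. That array was left out because the late genes were high on it, so the smaller spread follows from the choice. Many of the remaining values lay at the floor, and this fit does not check the 6 calls. With PreB array 3 left out instead 2 were called (Ltf and Chil3), with ProB array 2 left out 3, and with PreB array 2 or ProB array 1 left out 4 each, while every difference stayed between 6.06 and 9.61. S100a8 and Camp were not called in any of these 4 fits, in which the lone array of a group is assumed to vary like the other groups. The actin 3' to 5' difference and Xist moved with this comparison, as given above, and their part in it was not tested.

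The PreB samples were also high for markers of other blood cells. The 4 measured monocyte markers had a mean of 7.21 and 7.19 on the PreB arrays against 4.18 and 3.50 on the ProB arrays, and all 4 were above the floor on each. The 4 natural killer markers had a mean of 5.55 and 5.81 against 2.64 and 2.43, with 2 above the floor on each PreB array. Of the 4 measured neutrophil markers outside the 10 genes (Csf3r, Cxcr2, Mmp8 and Lcn2), 3 were above the floor on each PreB array and none on the ProB arrays, with means of 4.87 and 5.62 against 2.32 and 2.49. T cell markers were at the floor and 1 to 2 of 6 erythroid markers above it on the PreB arrays. B lineage markers had means of 10.09 and 10.25 on the PreB arrays, against 9.78 and 10.20 on the ProB arrays. The part of other cells in the PreB values of the late genes was not tested.

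**Figure D3:**
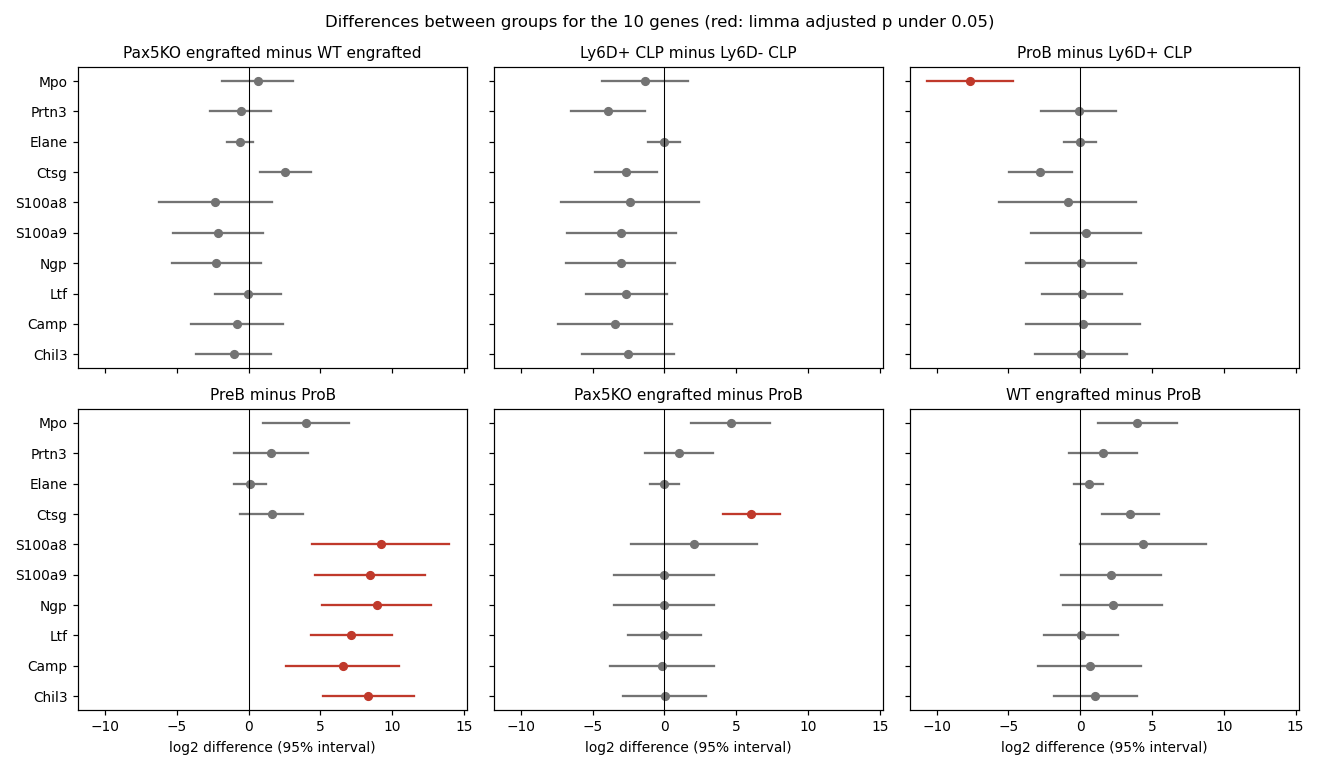
Difference in log2 signal (horizontal axis) with its 95% interval for each of the 10 genes in the 6 comparisons, 1 panel per comparison, with calls by limma at an adjusted p under 0.05 in red. All 6 late genes are called from ProB to PreB, and elsewhere only Mpo from Ly6D+ CLP to ProB and Ctsg between Pax5KO engrafted and ProB cells.

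Between the engrafted groups, which ask what Pax5 loss does to reporter-positive B220+ cells, no member was called, against 3.64% of genes called higher and 2.29% lower in Pax5KO cells. At an unadjusted limma p under 0.05 the count was 1, Ctsg, against 1719 of 18193 genes higher and 1041 lower. Ctsg differed by 2.56 (SE 0.78, 95% interval 0.77 to 4.34, limma adjusted p = 0.118). It was called with array weights (2.92, limma adjusted p = 0.00416), where 1881 of 18193 genes were called higher and 1184 lower. It was also called when dim genes were left out (limma adjusted p = 0.0217), where 814 of 8537 genes were called higher and 461 lower. Differences of the late genes had the other sign. S100a8 differed by -2.31 (SE 1.71, limma adjusted p = 0.713), S100a9 by -2.13 (SE 1.36, limma adjusted p = 0.645) and Ngp by -2.25 (SE 1.36, limma adjusted p = 0.596). With array weights S100a9 was called too (-2.01, limma adjusted p = 0.0485).

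For Ngp the Pax5KO arrays were at the floor, so its difference is a lower bound in size. Without Ly6D- CLP array 2 in the fit, S100a8, S100a9 and Ngp differed by the same amounts. Their spread was smaller there because the array left out was high for these genes, so that fit is no check of them. Camp differed by -0.81 (SE 1.42), with the Pax5KO arrays and WT array 2 at the floor, and Chil3 by -1.04 (SE 1.14), with the Pax5KO arrays and WT array 1 at the floor. Ltf was at the floor in both groups. Mpo (0.63, SE 1.07), Prtn3 (-0.56, SE 0.93) and Elane (-0.58, SE 0.39) were not called, and the arrays of the groups overlapped. These values turned on single WT arrays: Mpo was at -0.82 without WT array 1 and 1.72 without array 3, Prtn3 at 0.60 and Elane at -0.01 without array 3. Arrays 1 and 2 of the WT group had low Xist and array 3 had high Xist. That array alone against the Pax5KO arrays gave 7.39 against 8.49 to 8.78 for Ctsg, and 8.25 against 4.59 to 6.25 for S100a8. For Mpo it gave 9.39 against 7.51 to 7.99, opposite in sign to the group difference, and for Prtn3 6.30 against 2.98 to 3.92. The 4 measured neutrophil markers outside the members were at the floor on all Pax5KO engrafted arrays and on WT arrays 1 and 2, with 1 above it on array 3.

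Against ProB cells, the engrafted groups share the same ProB arrays with each other, and ProB cells came from mice without a transplant. In Pax5KO engrafted cells Ctsg rose by at least 6.06 (SE 0.87, limma adjusted p = 0.00539) and was the 1 member called, against 4.22% of genes called higher and 1.02% lower. Mpo differed by 4.60 (SE 1.20, limma adjusted p = 0.0697) and was called in a fit of these groups only (limma adjusted p = 0.0216). Prtn3 differed by 1.0 (SE 1.04, 95% interval -1.37 to 3.37), S100a8 by 2.06 (SE 1.91, limma adjusted p = 0.759) and S100a9 by -0.01 (SE 1.53). Elane, Ngp, Ltf, Camp and Chil3 were at the floor in both groups.

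In WT engrafted cells no member was called against ProB cells, where 3.63% of genes were called higher and 1.30% lower, and 3 had an unadjusted p under 0.05: Mpo, Ctsg and S100a8. Mpo differed by 3.98 (SE 1.20, limma adjusted p = 0.113), Ctsg by 3.50 (SE 0.87, limma adjusted p = 0.0609) and S100a8 by 4.37 (SE 1.91, limma adjusted p = 0.298). S100a9 differed by 2.12 (SE 1.53) and Ngp by 2.25 (SE 1.52, 95% interval -1.22 to 5.72). Without Ly6D- CLP array 2, where 5.58% of genes were called in either direction, S100a8 and S100a9 were called. That array is in neither group and was left out because the late genes were high on it. The smaller spread follows from that choice, so this fit is no check of S100a8 and S100a9. Without WT array 1 Mpo was called (5.42, limma adjusted p = 0.00290). Mpo and Ctsg were also called without dim genes (limma adjusted p = 0.0211 and 0.0100).

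The other granulocyte genes came from lists written with earlier results of these data known, and the 10 members are left out of the counts. Over all genes 6.35% rose and 5.19% fell from ProB to PreB cells. In that comparison 7 of 13 secondary and tertiary granule genes rose and none fell (median difference 2.67), among them Lcn2 (5.93), the gelatinase Mmp9 (4.56), the collagenase Mmp8 (4.16) and the oxidase subunit Cybb (6.26). Of 17 mature neutrophil genes 13 rose and 1 fell (median 2.74), led by the lectins Clec4d (5.90) and Clec4e (4.76), the formyl peptide receptor Fpr2 (4.47), the stefin Stfa2l1 (4.39) and Ifitm6 (4.22). In all, 5 of 10 primary granule genes rose and 1 fell (median 1.35). The largest rises were those of Nkg7 (4.10), Mgst1 (2.84), Hp (2.67) and Gstm1 (1.48), and Cst7, an inhibitor of cathepsins, fell by 2.11. Nkg7 is also a natural killer marker.

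Of 9 granulocyte transcription factors 5 rose from ProB to PreB cells: Cebpb (2.64), Irf8 (1.86), Gfi1 (1.54), Myb (1.38) and Spi1, which encodes PU.1 (1.32). Cebpa, the C/EBP factor of granulocyte commitment, was at the floor on every array. In addition, 7 of 11 monocyte and macrophage genes rose as well (median 1.71), with Lgals3 (6.61), Mpeg1 (6.04), Csf1r (4.91), Cd14 (3.94) and Vcan (3.0) the largest, and none of 7 eosinophil, basophil and mast cell genes was called. Over all genes the median was 0. With any 1 of the 4 arrays left out, the genes called higher numbered 6 to 9 for secondary and tertiary granules, 10 to 12 for mature neutrophils and 3 to 4 for primary granules. Of the genes named, Mgst1 was called in none of these 4 fits, Csf1r in 1, Lcn2 and Gstm1 in 2 and Hp, Gfi1 and Myb in 3 each.

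In the other comparisons fewer list genes were called, in both directions. Between the engrafted groups, where 3.64% of all genes were higher and 2.29% lower in Pax5KO cells, 2 of 10 primary granule genes were higher in Pax5KO cells, Cst7 (3.47) and Serpinb1a (1.41), and Mgst1 was lower, by -7.31. Lyz2, the gene of lysozyme, was higher (2.52) and the oxidase subunit Cyba lower (-2.47) among 13 secondary and tertiary granule genes. In the mature neutrophil list Trem1, an activating receptor of myeloid cells, was higher (4.64), and Ccl6 (-1.86) and Wfdc21 (-1.47) were lower. Irf8 was lower by -1.67. With each of the 6 arrays left out in turn, Lyz2 and Ccl6 were called in 2 fits each and Wfdc21 in none, and the other 6 genes named here in all.

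From Ly6D+ CLP to ProB cells, where 5.36% of all genes fell, 4 of 10 primary granule genes fell with Mpo: Nkg7 by 5.67, Cst7 by 3.57, Serpinb1a by 1.77 and Srgn, the gene of the granule proteoglycan serglycin, by 1.25. Likewise 4 of 9 transcription factors fell, Cebpb by 2.82, Irf8 by 2.21, Spi1 by 2.20 and Myb by 1.31, which was called in 2 of 4 fits with an array left out. Spi1 was higher than in ProB cells in the engrafted cells too, by 2.01 in the Pax5KO and 2.20 in the WT group, which share the ProB arrays. Other granule and neutrophil genes rose from Ly6D+ CLP to ProB cells, against 1.93% of all genes. These were Slpi (5.64) of the mature neutrophil list and Cyba (2.62) of the secondary and tertiary granule list. Slpi was called in 4 of 4 fits with an array left out and Cyba in 2. Trem1 (-3.84) and Il1r2 (-2.42) of the mature neutrophil list fell. From Ly6D- to Ly6D+ CLP the mature neutrophil list had 1 gene higher, Trem1 (3.90), and 1 lower, Csf3r (-2.79), against 0.813% and 0.638% of all genes. Without Ly6D- CLP array 2 it had 2 higher and 1 lower, and without array 1 it had 1 higher and 2 lower. No gene of the primary granule, secondary and tertiary granule or transcription factor lists was called with both arrays or without array 2, and without array 1 the secondary and tertiary granule list had 2 lower.

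**Figure D4:**
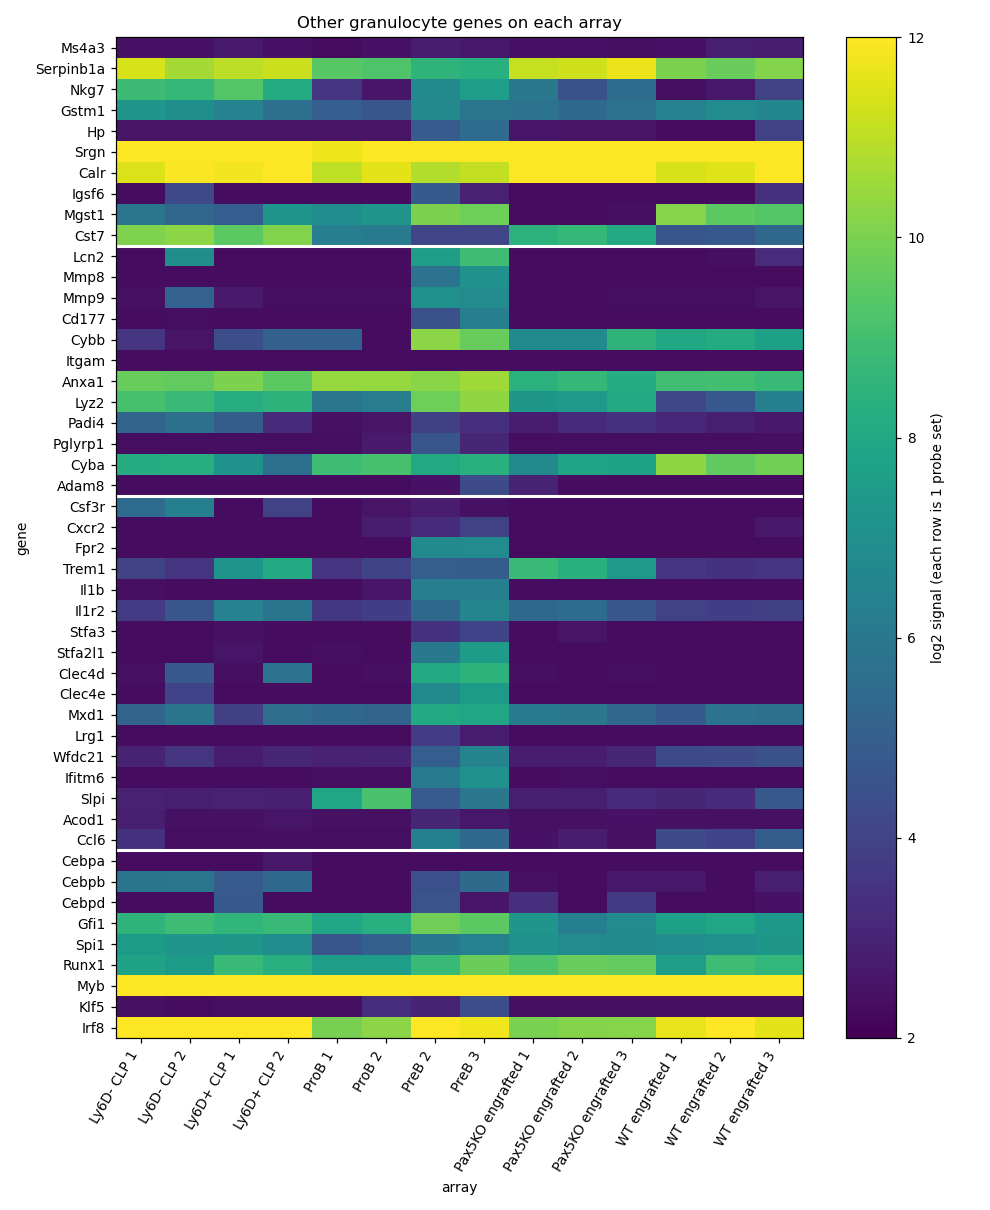
Log2 signal (colour, 2 to 12) of the measured granulocyte genes outside the 10 members on each array, 1 probe set per row, with white lines between the primary granule, secondary and tertiary granule, mature neutrophil and transcription factor lists. Hp belongs to both granule lists and is drawn once. Lcn2, Mmp8, Mmp9, Fpr2, Stfa2l1, Clec4d and Clec4e are bright on the PreB arrays and at or near the floor on the ProB and engrafted arrays, and of these Lcn2, Mmp9, Clec4d and Clec4e are above the floor on Ly6D- CLP array 2.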

How the data were processed

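Sorted marrow cells were measured on 14 Affymetrix 3' arrays. The authors deposited a table of log2 signals with 45101 probe sets in rows. The tools named in the submitters' processing notes are RMA, GCRMA and limma; their roles and versions are not given in the sources used here. Values ran from 2.32 to 16.08, array medians lay between 2.41 and 2.52, and no further scaling was applied. Probe sets with 1 symbol in the platform annotation (34945, of which 34741 matched the RefSeq table of GRCm38.p6) were kept, and 932 with several, 9160 with none and 64 controls were left out. A gene was its probe set of highest mean, giving 18193 genes.

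Groups came from the sample titles. The test was limma's moderated one (version 3.58.1, R version 4.3.3, functions lmFit and eBayes; 1 mean per group, all 14 arrays, 8 residual degrees of freedom), with Benjamini-Hochberg adjustment over all genes and calls under 0.05, two-sided. The script was tested on simulated data. The number of arrays limits the precision. The members and lists were chosen with earlier results of these data known. All members are named. From each list, at most the 5 called genes with the largest difference per comparison are named. Single values of other listed genes (Csf3r, Lcn2, Mmp8, Mmp9, Fpr2, Stfa2l1, Clec4d, Clec4e, Cebpa) were chosen after their values were seen.

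Deviations from the group means of same-numbered Pax5KO and WT engrafted arrays had r of 0.13, 0.30 and 0.54 over 12268 genes. Differently numbered arrays had r of -0.48 to 0.38, and Pax5KO array 1 was closer to WT array 2 (0.38) than to WT array 1. The titles state no pairing and these values do not settle 1, so the main fit uses none. Alternatives were averaged or single probe sets, only the groups compared, array weights, quantile normalization, equal array medians, filters on dim genes (mean under 4) and genes at the floor, a trend with robust prior, the replicate block and leaving out each array. Leaving out Ly6D- CLP array 2 from comparisons that do not use it, and list calls with an array left out, were chosen after seeing the data.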

Additional observations from a re-analysis of the deposited data

How the results depend on the processing

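Of 582 values of single members under alternatives other than leaving out an array, 548 kept direction and side of the threshold, 6 lost the call, 15 gained one and 3 that were not called changed sign. The other 10 changed sign at the floor in both groups, where values have no direction. With an array left out these were 287 of 330, 11, 10, 10 and 12, and no called difference changed sign. The 3 under other alternatives came with the replicate block: Prtn3 at -0.13 for Pax5KO, and Camp at -0.35 and Chil3 at -0.25 for WT engrafted against ProB cells. Engrafted and ProB arrays share no block, so that fit cannot tell their difference from one between blocks. These 3 values are therefore no check of the main ones. With an array left out, Mpo ranged from -0.82 to 1.72 and Prtn3 from -1.34 to 0.60 between the engrafted groups, and S100a9 from -0.38 to 0.36 for Pax5KO against ProB. From Ly6D- to Ly6D+ CLP S100a8 ranged from -6.49 to 1.71, S100a9 from -6.32 to 0.31, Ngp from -6.10 to 0.027, Camp from -6.92 to 0.0055 and Chil3 from -5.12 to 0.035. Main counts of members called were 0 between the engrafted groups, 0 from Ly6D- to Ly6D+ CLP, 1 from Ly6D+ CLP to ProB, 6 from ProB to PreB, and 1 for Pax5KO and 0 for WT engrafted against ProB cells. Array weights gave 2 between the engrafted groups and 0 from Ly6D+ CLP to ProB. A fit of only the groups compared gave 0 from Ly6D+ CLP to ProB and 2 for Pax5KO against ProB. Without dim genes, which tests 7 members, counts were 1 between the engrafted groups, 2 from Ly6D+ CLP to ProB, and 2 for each engrafted group against ProB. Without genes at the floor they were 1 between the engrafted groups and 2 for each engrafted group against ProB, since fewer genes enter the adjustment. Equal array medians gave 2 for Pax5KO against ProB. With the replicate block the count between the engrafted groups stayed 0 and no call there changed. Pax5KO against ProB went to 0, which is no check because those groups share no block. ProB to PreB, whose groups do share blocks, went to 5, where Camp lost its call (limma adjusted p = 0.0876). Same-numbered arrays of the untransplanted groups had r of -0.04 to 0.08. Leaving out an array gave 0 to 1 between the engrafted groups, 0 to 6 from Ly6D- to Ly6D+ CLP, 1 from Ly6D+ CLP to ProB, 2 to 6 from ProB to PreB, 1 for Pax5KO and 0 to 2 for WT against ProB. The upper counts between the engrafted groups and from ProB to PreB came only from leaving out Ly6D- CLP array 2. That array is in none of those groups and was high for the late genes, so these upper counts are no check. The same holds for S100a8 and S100a9 in WT engrafted against ProB cells. Without the gene Elane the late rise exceeded the precursor rise on 2 arrays instead of 4. Over all genes, counts of calls ranged from 676 to 3065 between the engrafted groups (1080 in the main fit), 1 to 1144 from Ly6D- to Ly6D+ CLP (264), 3 to 2129 from Ly6D+ CLP to ProB (1327), 487 to 2695 from ProB to PreB (2100), 191 to 9136 for Pax5KO (953) and 100 to 1825 for WT against ProB (897). Equal array medians moved the median of 12268 genes not at the floor from 0.01 to -0.20 between the engrafted groups, from -0.08 to 0.35 from Ly6D+ CLP to ProB, from 0.13 to -0.42 for Pax5KO and from 0.05 to -0.29 for WT against ProB; no member's call reversed there. The split of higher to lower calls went from 663 and 417 to 612 and 698 between the engrafted groups, from 351 and 976 to 936 and 717 from Ly6D+ CLP to ProB, from 768 and 185 to 851 and 8285 for Pax5KO and from 661 and 236 to 489 and 599 for WT against ProB. Signals at the floor limit what can be said of Elane, Ltf and the late genes in ProB and Pax5KO engrafted cells.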
